A study of Mus musculus with 48 samples.

Results

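Brown adipose tissue (BAT) of young female mice was compared after 2 months of dietary restriction and after full feeding, with 3 libraries in each group, which make 6 of the 48 libraries of the series and 6 of its 20 BAT libraries. The libraries were chosen by their labels alone, as the 5-month BAT libraries of the ALDR and AL diets. AL mice were fully fed throughout. ALDR mice were fully fed until 12 weeks of age and were then restricted, the ration being cut by 10% a week over 4 weeks down to 60% of what AL mice ate, and both groups were killed at 5 months. ALDR is spelled ADRL in the titles of these libraries, and their descriptions name the switch to restriction at young age. All mice were C3B6F1 females, an F1 hybrid of inbred strains, carried no transgene, lived 5 to a cage and were killed in the 3 hours before the restricted mice would have been fed. Restricted mice were fed once a day. For comparison, 3 further BAT groups at 26 months are used: AL mice (n = 3), ALDR mice restricted from 24 months of age (n = 5), and DR mice restricted from 12 weeks of age (n = 3). White adipose tissue (WAT) of ALDR and AL mice at 5 months (n = 3 each) is used in the same way. The BAT fit also holds DRAL mice at 26 months (n = 3), switched from restriction to full feeding at 24 months. The WAT fit also holds AL, DR, ALDR and DRAL mice at 26 months. The labels call the replicates biological but name no mouse, cage or litter for a library, and the extraction protocol speaks of epididymal fat although the mice were female.

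Brown fat burns fuel to make heat. Cold and feeding raise sympathetic nerve activity, noradrenaline acts on beta-adrenergic receptors, cyclic AMP rises, stored triglyceride is broken down, and the released fatty acids both fuel the mitochondria and open UCP1, the carrier that lets protons back in without making ATP. The enzyme DIO2 makes active thyroid hormone inside the cell and strengthens that program. The tissue also takes up glucose and blood lipids in large amounts and makes fatty acids from glucose, while burning others.

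Library totals ran from 11512576 to 18012404 counts. On these unscaled totals 3 counts, the upper limit that a count of 0 allows, stood for 0.167 to 0.261 CPM (counts scaled by library size). The limits cover counting error only. All other CPM values, and the limit used for Acot3, rest on TMM-scaled library sizes. Markers of brown fat were abundant in every library: Ucp1 stood at 1581 CPM or more. The summed level of 10 brown adipocyte markers was 7014 to 9517 CPM with AL and 4378 to 6109 CPM with ALDR, and without Ucp1 it was 3050 to 3435 CPM and 2796 to 3033 CPM. That of 8 markers of fat cells of any kind was 10982 to 11709 CPM with AL and higher with ALDR, at 12315 to 13495 CPM. That of 8 white adipocyte markers was 146 to 213 CPM with AL and 90.4 to 119 CPM with ALDR, and without Lep the order was the other way, at 46.0 to 51.1 CPM and 82.3 to 110.2 CPM. None of these sums overlapped between the diets. Hoxc10 and Wt1 among the latter had no count in any of the 6 libraries, and Lep and Retn passed the test, in opposite directions. All 4 Y-linked genes checked had no count either. Skeletal muscle markers set libraries apart within both groups. The summed level of 17 muscle markers was 758, 9210 and 939 CPM in AL replicates 1 to 3 and 3021, 202 and 157 CPM in ALDR replicates 1 to 3. AL replicate 2 and ALDR replicate 1 thus held the most muscle RNA, and none of 17 muscle markers passed the test between the diets. All 17 had lower estimates in ALDR, from -2.48 to -0.99 on the log2 scale with a median of -1.75. Sums of 11 epithelial markers were 5.51 to 12.8 CPM with AL and 34.6 to 77.2 CPM with ALDR, and Krt7 passed the test (2.23 ± 0.70, adjusted p = 0.0409), a call lost without AL replicate 1, AL replicate 2, AL replicate 3, ALDR replicate 1 or ALDR replicate 2 (adjusted p = 0.0874 to 0.136) and without both muscle-rich libraries. Sums of 5 mesothelial markers were 6.55 to 7.88 CPM with AL and 21.6 to 38.1 CPM with ALDR, and Lrrn4 passed (2.02 ± 0.28, adjusted p = 0.000346). Upk3b, a defining mesothelial marker, had no count in any library. Markers of macrophages, from 175 to 298 CPM with AL and from 218 to 301 CPM with ALDR, overlapped between the diets. In bulk tissue, fewer cells of a type and less RNA per cell cannot be told apart.

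**Figure D1:**
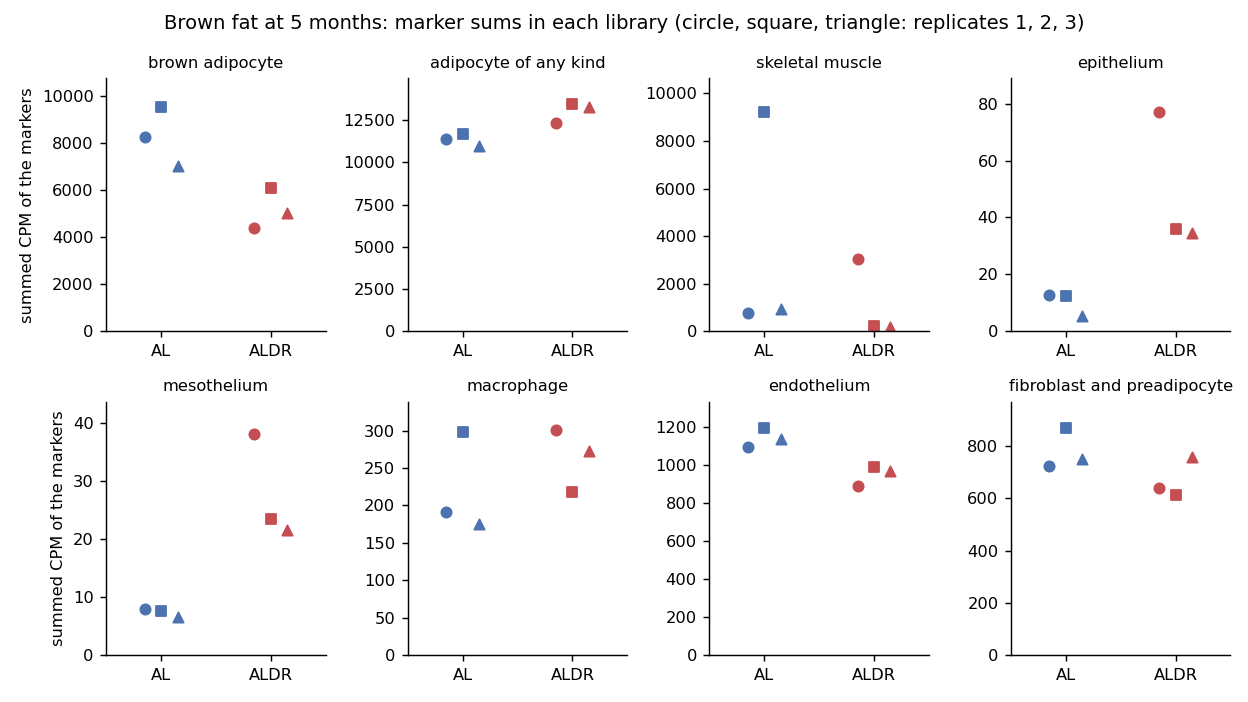
Summed CPM of marker genes in each of the 6 young BAT libraries, 1 panel per cell type, with AL in blue, ALDR in red and a symbol for each replicate. The muscle sum is highest in AL replicate 2 (9210 CPM) and ALDR replicate 1 (3021 CPM), and the epithelial and mesothelial sums of the diets do not overlap.

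Restricted mice were killed before their daily meal, so in every diet comparison restriction and time since the last meal cannot be told apart. After 2 months of restriction, 1997 of 13845 genes tested in young brown fat differed between the diets, or 14.4%, at an adjusted p under 0.05. Of these, 997 genes were higher (7.2% of those tested) and 1000 genes lower (7.22%) in ALDR, against 1191 higher and 854 lower with upper-quartile scaling factors. The shares of 7.2% and 7.22% are the background for each count of list members below. The lists were chosen with earlier results of these data known. Among called genes the median size of the change was 0.61 on the log2 scale, and 454 genes changed by 1 or more, 270 of them upward. Libraries of the diets did not overlap for 1978 of the called genes, against 41% of all genes tested. DESeq2 called 2414 genes, a fit of only the groups compared called 2936, and a fit with covariates for muscle and epithelial marker levels called 1825. The epithelial marker sums did not overlap between the diets, so the fit with covariates may also take up part of the diet effect. Fits that leave out libraries rest on fewer samples. Without ALDR replicate 1 the count was 835, without AL replicate 2 it was 1048, without AL replicate 1 it was 1139 and without ALDR replicate 3 it was 1190, and without both AL replicate 2 and ALDR replicate 1, a choice made after seeing their muscle counts, it was 341.

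**Figure D2:**
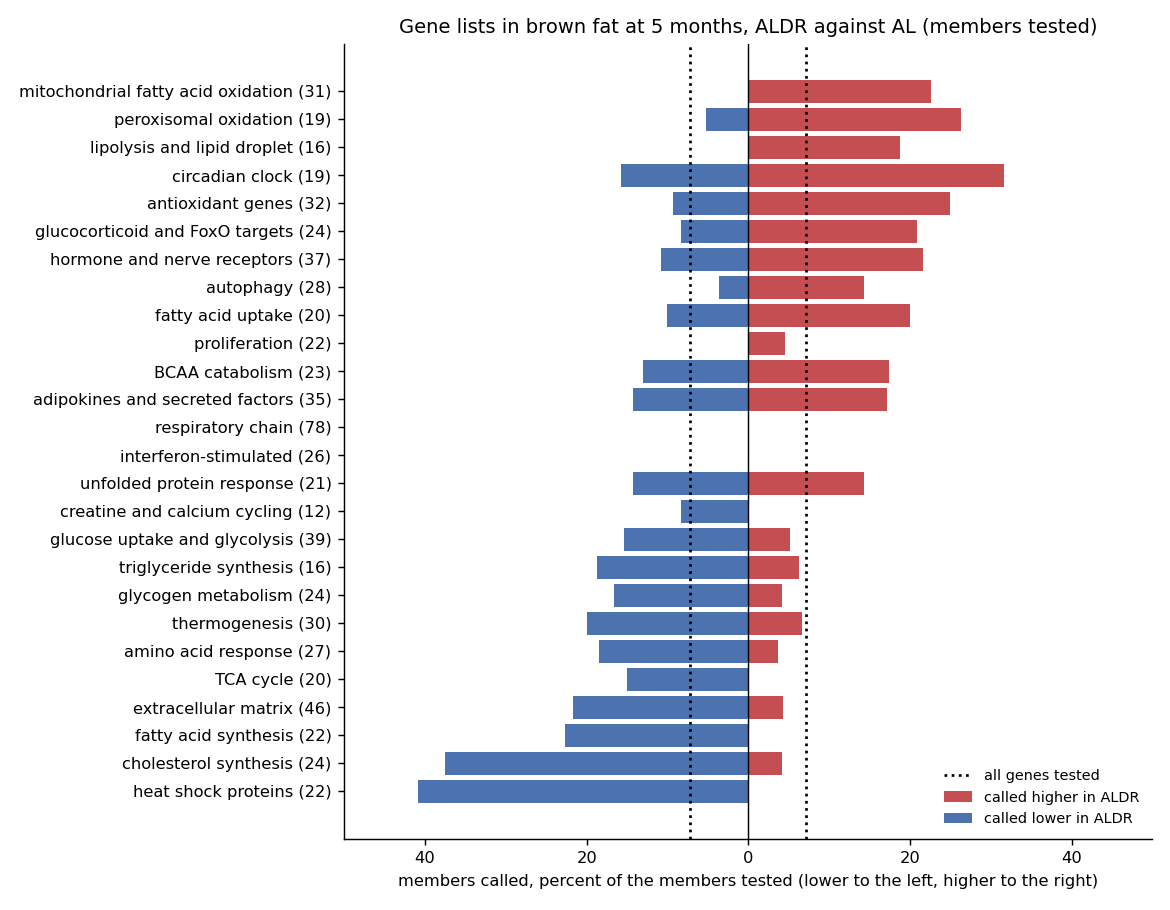
For each list of genes, the bars give the percent of its tested members called lower in ALDR (blue, to the left) and higher in ALDR (red, to the right), with the number tested in parentheses. Dotted lines mark the share among all genes tested, 7.22% lower and 7.2% higher.

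Several genes of heat production fell in the restricted mice. Of 30 tested members of the thermogenesis list, 6 fell and 2 rose (median log2 fold change -0.33, against -0.01 over all genes tested). Ucp1, at chromosome 8, 83290352 to 83298452 (GRCm38), was 4898, 6082 and 3964 CPM with AL and 1581, 3076 and 2088 CPM with ALDR. Every ALDR library lay below every AL library, and the change was -1.15 ± 0.32, adjusted p = 0.0244, a 2.22-fold lower level. Dio2, the deiodinase that activates thyroid hormone (chromosome 12, 90724552 to 90738438), was 118, 229 and 129 CPM with AL and 10.5, 24.2 and 36.8 CPM with ALDR. AL replicate 2 was highest and ALDR replicate 1 lowest, the groups stood far apart, and the change was -2.73 ± 0.55, adjusted p = 0.00364. Adrb3, the beta-3 adrenergic receptor of fat cells, was 258, 352 and 261 CPM with AL and 159.6, 193 and 188 CPM with ALDR (-0.69 ± 0.18, adjusted p = 0.0149). Letmd1, a mitochondrial protein needed for brown fat heat production, was 771, 789 and 631 CPM with AL and 367, 464 and 412 CPM with ALDR (-0.82 ± 0.20, adjusted p = 0.0105). Prdm16, a transcription regulator of brown fat identity, fell by 0.86 ± 0.22 (adjusted p = 0.0157) and Esrrb, an orphan nuclear receptor, fell by 1.60 ± 0.48 (adjusted p = 0.0326). None of these 6 genes overlapped between the diets, as was so for 1978 of the 1997 genes called.

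The members that rose were Irf4 and Kcnk3. Irf4, a transcription factor induced in fat by fasting, was 8.03, 10.8 and 13.5 CPM with AL and 60.0, 59.3 and 51.4 CPM with ALDR. Restricted and fed libraries stood far apart (2.39 ± 0.46, adjusted p = 0.00264). Kcnk3, a potassium channel of brown adipocytes, was 357, 369 and 347 CPM with AL and 466, 482 and 491 CPM with ALDR, a small change with little spread within either diet (0.42 ± 0.12, adjusted p = 0.0220). Other members did not pass the test. Cidea, a lipid droplet protein that marks brown fat, was 2046, 2125 and 1951 CPM with AL and 1798, 1917 and 1944 CPM with ALDR (-0.11 ± 0.12, adjusted p = 0.592), Ppargc1a, the coactivator of mitochondrial genes, was at -0.32 ± 0.25, adjusted p = 0.428, and Pparg, the master regulator of fat cells, was at -0.36 ± 0.13, adjusted p = 0.0665. Cox8b and Cox7a1, subunits of cytochrome oxidase used as brown fat markers, were at -0.82 ± 0.31, adjusted p = 0.0812 and at -0.68 ± 0.27, adjusted p = 0.105. The 8 calls became 4 without AL replicate 1, 4 without AL replicate 2, 3 without ALDR replicate 1 and 5 without ALDR replicate 3, and 1 without both muscle-rich libraries, where Dio2 was at adjusted p = 0.0849 and Ucp1 at adjusted p = 0.307. With the covariates the count was 8, and with DESeq2 or only the groups compared it was 14. Dio2 and Irf4 kept the call in the 6 fits without 1 library, and that of Ucp1 was lost without AL replicate 1, AL replicate 2, ALDR replicate 1 or ALDR replicate 3 (adjusted p = 0.0586 to 0.121).

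**Figure D3:**
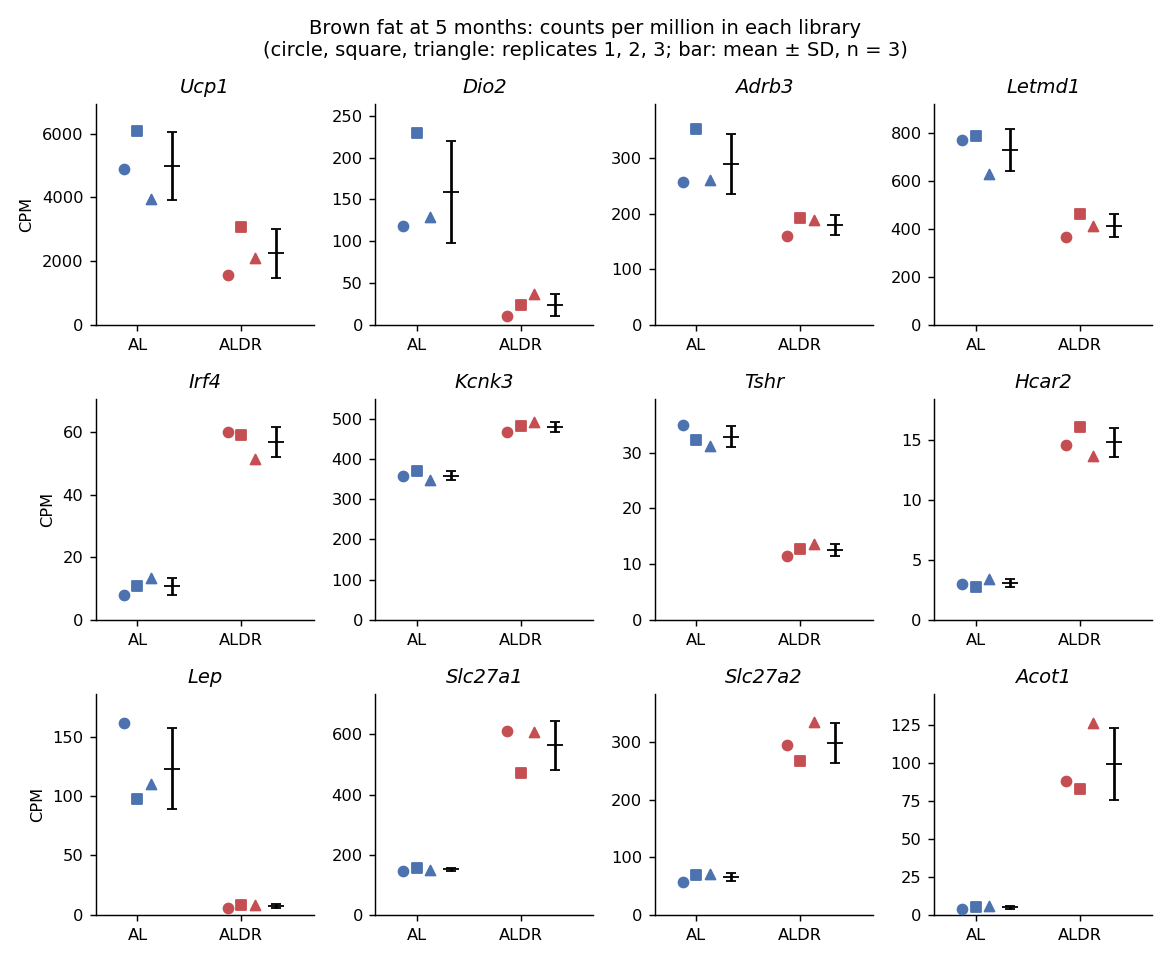
CPM in each young BAT library for 12 genes, with AL in blue and ALDR in red, a symbol for each replicate and a bar for the mean ± SD (n = 3). Ucp1, Dio2, Adrb3, Letmd1, Tshr and Lep are lower in ALDR, the other 6 genes are higher, and no panel shows an overlap.

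Promoters were searched for short sequences bound by factors of cyclic AMP, clock and amino acid signalling, and 4 that hold one of the first 2 kinds are shown, for genes of heat production, stress kinase signalling, fatty acid import and the clock that are described library by library. Each runs from 250 bases before the RefSeq start to 50 bases after it, 5′ to 3′ on the gene's strand, in GRCm38.p6, with the motif in capitals.
Dio2, cyclic AMP response element, chr12:90738989-90739288, minus strand: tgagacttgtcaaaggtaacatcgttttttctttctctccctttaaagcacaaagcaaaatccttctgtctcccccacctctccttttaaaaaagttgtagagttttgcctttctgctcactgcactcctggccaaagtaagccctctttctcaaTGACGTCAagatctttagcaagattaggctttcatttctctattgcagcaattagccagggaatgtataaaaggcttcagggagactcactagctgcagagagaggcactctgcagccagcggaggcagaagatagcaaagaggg
Dusp8, cyclic AMP response element, chr7:142095235-142095534, minus strand: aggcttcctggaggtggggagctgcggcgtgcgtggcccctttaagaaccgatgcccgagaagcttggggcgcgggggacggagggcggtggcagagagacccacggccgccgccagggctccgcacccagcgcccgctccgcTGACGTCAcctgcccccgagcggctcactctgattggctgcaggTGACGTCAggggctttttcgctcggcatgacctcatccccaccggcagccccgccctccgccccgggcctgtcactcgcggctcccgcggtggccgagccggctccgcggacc
Slc27a1, E-box, chr8:71570344-71570643, plus strand: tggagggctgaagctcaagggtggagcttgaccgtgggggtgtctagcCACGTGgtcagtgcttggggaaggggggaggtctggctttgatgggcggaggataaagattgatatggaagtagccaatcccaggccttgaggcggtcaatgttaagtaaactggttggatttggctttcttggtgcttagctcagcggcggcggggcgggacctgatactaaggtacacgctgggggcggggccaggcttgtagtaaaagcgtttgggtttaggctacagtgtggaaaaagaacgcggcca
Per3, D-box, chr4:151044616-151044915, minus strand: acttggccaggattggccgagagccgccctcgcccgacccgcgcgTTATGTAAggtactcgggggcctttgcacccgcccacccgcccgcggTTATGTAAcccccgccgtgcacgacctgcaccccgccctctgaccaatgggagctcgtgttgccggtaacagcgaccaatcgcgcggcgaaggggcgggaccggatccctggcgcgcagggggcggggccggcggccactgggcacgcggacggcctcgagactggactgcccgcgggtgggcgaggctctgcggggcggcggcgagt
The cyclic AMP response element searched was TGACGTCA, which reads the same on both strands and was in 1.79% of the 32851 mouse promoters of this length. Its single copy in the Dio2 promoter begins 95 bases before the start, and the Dusp8 promoter holds 2 copies. The E-box searched was CACGTG, also its own reverse complement, in 7.15% of promoters, and 1 of the 3 listed Slc27a1 promoters holds 1 copy. The D-box searched was TTATGTAA on either strand, in 0.938% of promoters, and the Per3 promoter holds 2 copies. The amino acid response element searched was TGATGCAA on either strand, in 0.895% of promoters, and that of Herpud1 holds 1 copy. A match describes the letters in the window and shows no binding. Of the tested genes, 10681 of 13845 (77.1%) had a promoter in the table, under the 80% needed, so motif shares among called genes are not compared.

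Several receptors for signals from nerves and hormones changed. Of 37 tested receptor and signalling genes, 8 rose and 4 fell (median log2 fold change 0.41), or 21.6% and 10.8%, against 7.2% and 7.22% of all genes tested. Tshr, the receptor of thyroid-stimulating hormone (chromosome 12, 91384563 to 91549808), was 34.9, 32.3 and 31.3 CPM with AL and 11.4, 12.7 and 13.7 CPM with ALDR. The spread within each diet was small beside the gap between them, and the change was -1.38 ± 0.14, adjusted p = 2.33e-05. Among the adrenergic receptors, Adrb3 fell, as given above. Adrb1, the beta-1 form, was 38.7, 33.6 and 43.7 CPM with AL and 15.3, 22.1 and 19.6 CPM with ALDR, and although the groups did not overlap it did not pass (-1.02 ± 0.35, adjusted p = 0.0558). Adra1a, an alpha-1 adrenergic receptor, rose by 0.62 ± 0.18 (adjusted p = 0.0277).

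Receptors of metabolites and of insulin were among the genes that rose. Hcar2, the receptor of the ketone body hydroxybutyrate and of niacin, was 3.01, 2.76 and 3.44 CPM with AL and 14.6, 16.1 and 13.7 CPM with ALDR. Fed and restricted libraries stood far apart (2.26 ± 0.31, adjusted p = 0.000332). Hcar1, the lactate receptor, rose by 1.097 ± 0.24 (adjusted p = 0.00587). Irs1, the adaptor that carries the insulin signal, rose by 0.81 ± 0.18 (adjusted p = 0.00703) and Insr, the insulin receptor, by 0.38 ± 0.10 (adjusted p = 0.0173). Thrb, a thyroid hormone receptor, rose by 0.41 ± 0.11 (adjusted p = 0.0156), and Klb, the coreceptor of FGF21, by 0.47 ± 0.15 (adjusted p = 0.0445). Npr3, the clearance receptor of natriuretic peptides, fell by 1.27 ± 0.33 (adjusted p = 0.0164), and Sctr, the secretin receptor, by 1.29 ± 0.33 (adjusted p = 0.0149). The 12 calls became 6 without ALDR replicate 1, 4 without both muscle-rich libraries and 11 with the covariates, and Tshr, Hcar2, Hcar1 and Irs1 kept theirs with any 1 library left out. That of Adrb3 was lost without AL replicate 2 or ALDR replicate 1 (adjusted p = 0.0809 to 0.0897), and that of Npr3 without ALDR replicate 1 (adjusted p = 0.0769).

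Transcripts of secreted factors changed in both directions, with 6 of 35 higher and 5 lower (median log2 fold change 0.10). These are 17.1% and 14.3%, against 7.2% and 7.22% of all genes tested, and secretion was not measured. Lep, the satiety hormone leptin (chromosome 6, 29060220 to 29073877), was 162, 97.4 and 110.4 CPM with AL and 5.46, 8.13 and 8.43 CPM with ALDR. It had one of the largest falls named here (-4.06 ± 0.64, adjusted p = 0.000862, 16.6-fold lower). Cfd, the complement factor adipsin, was 180.4, 291 and 189.6 CPM with AL and 1077, 785 and 887 CPM with ALDR (2.06 ± 0.58, adjusted p = 0.0247). Adipoq, which encodes adiponectin, was 593, 568 and 615 CPM with AL and 934, 899 and 960.0 CPM with ALDR (0.65 ± 0.12, adjusted p = 0.00189). Retn, which encodes resistin, was 28.0, 21.7 and 24.0 CPM with AL and 85.9, 67.1 and 84.6 CPM with ALDR (1.69 ± 0.29, adjusted p = 0.00125). Leptin was low in the same 3 libraries in which adipsin, adiponectin and resistin, other products of mature fat cells, were high. Nrg4, a growth factor released by brown fat, rose by 0.56 ± 0.17 (adjusted p = 0.0337), Fst, which encodes the activin antagonist follistatin, by 1.13 ± 0.32 (adjusted p = 0.0240) and Inhbb, an activin subunit, by 1.08 ± 0.25 (adjusted p = 0.00866). Fgf1, a fibroblast growth factor of fat tissue, fell by 1.49 ± 0.28 (adjusted p = 0.00225) and Mest, a gene linked to fat cell size, by 1.61 ± 0.45 (adjusted p = 0.0245). Gdf15, a stress-induced hormone, was at or below 1.51 CPM in every library and at 0 in ALDR replicate 1 (-3.72 ± 1.11, adjusted p = 0.0321). The 11 calls became 6 without AL replicate 1, 7 without AL replicate 2, 7 without AL replicate 3, 5 without ALDR replicate 1 and 7 without ALDR replicate 2, 4 without both muscle-rich libraries and 12 with the covariates. Lep, Adipoq, Retn, Inhbb and Fgf1 kept the call with any 1 library left out, and that of Cfd was lost without AL replicate 1, AL replicate 2, AL replicate 3, ALDR replicate 1 or ALDR replicate 3 (adjusted p = 0.0519 to 0.0944).

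Some genes that import fatty acids into cells rose. Of 20 tested uptake genes, 4 rose, 2 fell and 14 did not pass (median log2 fold change 0.04). Slc27a1, a fatty acid transport protein (chromosome 8, 71568882 to 71587302), was 146, 157 and 151 CPM with AL and 611, 470.0 and 608 CPM with ALDR. The fed libraries were nearly level, all restricted ones stood above them, and the change was 1.90 ± 0.17, adjusted p = 9.97e-06. Its relative Slc27a2, also an acyl-CoA synthetase, was 57.1, 68.5 and 71.6 CPM with AL and 295, 267 and 336 CPM with ALDR (2.18 ± 0.22, adjusted p = 2.36e-05, 4.55-fold higher). Lpl, which releases fatty acids from blood lipoproteins, was 2328, 2793 and 2551 CPM with AL and 3556, 4105 and 4072 CPM with ALDR (0.61 ± 0.11, adjusted p = 0.00227). Angptl4, an inhibitor of that lipase, rose by 0.71 ± 0.22 (adjusted p = 0.0378). Among the members that fell was Fabp3, a cytosolic fatty acid carrier also found in muscle, which fell by 0.82 ± 0.26 (adjusted p = 0.0401). Fabp3 was highest in AL replicate 2, the library with the most muscle marker counts, and the part of muscle in its fall was not tested. Cd36, the main fatty acid translocase, did not pass (0.19 ± 0.16, adjusted p = 0.462).

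Of 31 tested genes on the list for mitochondrial fatty acid oxidation, 7 rose and 0 fell, and of 19 peroxisomal genes 5 rose and 1 fell. The 7 include a plasma membrane carrier, Slc22a5, and the thioesterase Acot1 described below, so not all act inside mitochondria. Slc22a5, the carnitine carrier of the plasma membrane, was 58.7, 59.1 and 65.6 CPM with AL and 126, 121 and 134 CPM with ALDR (1.05 ± 0.11, adjusted p = 4.13e-05). Cpt1a, a carnitine palmitoyltransferase that admits acyl groups to mitochondria, rose by 0.82 ± 0.19 (adjusted p = 0.00945), while its brown fat and muscle form Cpt1b did not pass (-0.28 ± 0.12, adjusted p = 0.115). Acad10 and Acad11, acyl-CoA dehydrogenases, rose by 0.44 and 0.58. The other 24 tested members of the mitochondrial list did not pass, and its median was -0.07. In the peroxisome, Ehhadh, the bifunctional enzyme of beta-oxidation, was 81.3, 113 and 105 CPM with AL and 436, 402 and 572 CPM with ALDR (2.24 ± 0.33, adjusted p = 0.000468), Decr2 rose by 0.86 ± 0.10 (adjusted p = 8.12e-05), and Acaa1a and Pex11a by 0.31 and 0.36. Abcd2, a carrier of very long chain fatty acids into peroxisomes, fell by 1.18 ± 0.19 (adjusted p = 0.000914).

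Of 4 neighbouring acyl-CoA thioesterase genes on chromosome 12, 3 rose. Their enzymes cut fatty acids from coenzyme A. Acot1 (84009490 to 84018371) was 4.09, 4.99 and 6.004 CPM with AL and 88.4, 83.1 and 126 CPM with ALDR (4.29 ± 0.67, adjusted p = 0.000731). Acot4 (84038379 to 84048601) was 5.72, 3.42 and 6.88 CPM with AL and 20.3, 21.3 and 32.8 CPM with ALDR (2.21 ± 0.32, adjusted p = 0.000378). Acot3 (84052144 to 84060402) had no count in any fed library and was 5.69, 4.58 and 6.35 CPM in the restricted ones, at least 28.1-fold higher when each fed library is set to 3 counts (adjusted p = 0.000249). Acot2 (83987861 to 83993873), the mitochondrial form, was 97.6, 138 and 66.3 CPM with AL and 138, 156 and 186 CPM with ALDR and did not pass (0.67 ± 0.25, adjusted p = 0.0845). These genes are related neighbours on the plus strand, and some reads may have been split between them. The 6 uptake, 7 mitochondrial and 6 peroxisomal calls numbered 4 to 5, 5 to 7 and 4 to 5 in the fits without 1 library, 3, 4 and 4 without both muscle-rich libraries, and 6, 6 and 5 with the covariates. Every call named here held with any 1 library left out except those of Acaa1a and Pex11a, each lost in several fits, of Acad11, lost without ALDR replicate 3 (adjusted p = 0.0584), of Fabp3, lost without AL replicate 1, AL replicate 2, ALDR replicate 1, ALDR replicate 2 or ALDR replicate 3 (adjusted p = 0.0687 to 0.201), and of Angptl4, lost without AL replicate 1, AL replicate 2, AL replicate 3, ALDR replicate 1, ALDR replicate 2 or ALDR replicate 3 (adjusted p = 0.0592 to 0.162).

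The genes of fatty acid synthesis that passed the test all fell. Of 22 tested, 5 fell and 0 rose (median log2 fold change -0.37). Acly, which makes cytosolic acetyl-CoA from citrate, was 5595, 2439 and 2483 CPM with AL and 882, 1031 and 796 CPM with ALDR (-1.96 ± 0.54, adjusted p = 0.0211). Scd2, a desaturase, was 600.4, 277 and 269 CPM with AL and 45.2, 73.2 and 49.2 CPM with ALDR (-2.77 ± 0.81, adjusted p = 0.0286). AL replicate 1 was the highest library for both, and the groups did not overlap. Thrsp, a lipogenic cofactor, fell by 0.87 ± 0.28 (adjusted p = 0.0450), Mlxipl, the glucose-sensing transcription factor ChREBP, by 0.76 ± 0.25 (adjusted p = 0.0470), and Pnpla3, a lipid droplet lipase, by 1.20 ± 0.34 (adjusted p = 0.0247). Fasn, the fatty acid synthase, was 32810.4, 12726 and 21797 CPM with AL and 14447, 14619 and 14756 CPM with ALDR, with AL replicate 2 below the restricted libraries (-0.62 ± 0.33, adjusted p = 0.227). Scd1, the main desaturase, was 38669.7, 13129 and 52243 CPM with AL and 37731, 36239 and 39937 CPM with ALDR, and the groups overlapped (0.13 ± 0.44, adjusted p = 0.885). Acaca, the acetyl-CoA carboxylase, was at -0.92 ± 0.32, adjusted p = 0.0669. In triglyceride assembly, Gpd1, which makes the glycerol backbone, was 10081, 8026 and 8033 CPM with AL and 3837, 5584 and 4660.2 CPM with ALDR (-0.89 ± 0.22, adjusted p = 0.0128), Agpat2, an acyltransferase, fell by 1.15 ± 0.32 (adjusted p = 0.0220), Lpin1, a phosphatase of the pathway, by 0.75 ± 0.25 (adjusted p = 0.0483), and Aqp7, the glycerol channel, rose by 0.43 ± 0.13 (adjusted p = 0.0364).

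Cholesterol synthesis had a larger share of calls, with 9 of 24 tested genes lower and 1 higher (median log2 fold change -0.68). Sqle, Nsdhl, Idi1, Fdps and Sc5d fell by 1.31, 1.23, 1.22, 1.13 and 1.09 on the log2 scale, and Cyp51 by 0.76. Hmgcs1, the synthase at the head of the pathway, was 401, 393 and 385 CPM with AL and 186, 232 and 248 CPM with ALDR (-0.83 ± 0.16, adjusted p = 0.00350). Fdft1, squalene synthase, was the exception at 99.2, 62.0 and 84.2 CPM with AL and 231, 188 and 160.3 CPM with ALDR (1.24 ± 0.23, adjusted p = 0.00236). AL replicate 1 had the highest level of each falling gene named here. Of the lipid droplet genes, 3 of 16 rose and 0 fell (18.8% called, against 14.4% of all genes tested). Cidec, which enlarges droplets, was 717, 811 and 712 CPM with AL and 1209, 1287 and 1265 CPM with ALDR (0.75 ± 0.13, adjusted p = 0.00123), and Fitm2 and Bscl2 rose by 0.44 and 0.36. The lipases Pnpla2 and Lipe did not pass, at 0.21 ± 0.12, adjusted p = 0.260 and at -0.30 ± 0.14, adjusted p = 0.168. The 5 calls of fatty acid synthesis became 0 without AL replicate 1, 0 without ALDR replicate 1, 1 without ALDR replicate 2 and 0 without ALDR replicate 3, and the 10 of cholesterol synthesis became 3 without AL replicate 1, 6 without AL replicate 2, 3 without ALDR replicate 1, 5 without ALDR replicate 2 and 3 without ALDR replicate 3. The 4 calls among 16 genes of triglyceride synthesis became 0 without AL replicate 1, 1 without AL replicate 2, 0 without ALDR replicate 1, 2 without ALDR replicate 2 and 1 without ALDR replicate 3. Without both muscle-rich libraries each of these counts was 0, and that of the lipid droplet genes was 1, against 3. With the covariates the counts of fatty acid, cholesterol and triglyceride synthesis and of the lipid droplet were 3, 10, 3 and 4, and with only the groups compared they were 10, 17, 6 and 5. Of the genes described here, Hmgcs1, Fdft1, Cidec and Fitm2 kept the call in the 6 fits without 1 library, and Gpd1 lost it without AL replicate 1 or ALDR replicate 1 (adjusted p = 0.0595 to 0.0759).

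Several genes of glucose entry fell. Of 39 tested genes of glucose uptake and glycolysis, 6 fell and 2 rose (median log2 fold change -0.23). Hk1, a hexokinase, was 155, 147 and 125 CPM with AL and 54.98, 68.8 and 53.6 CPM with ALDR (-1.27 ± 0.18, adjusted p = 0.000378), and Hk2, the insulin-responsive form, was 899, 565 and 589.7 CPM with AL and 268, 284 and 287 CPM with ALDR (-1.29 ± 0.30, adjusted p = 0.00967). Pfkp, a phosphofructokinase, was 172, 166 and 131 CPM with AL and 46.0, 65.8 and 54.6 CPM with ALDR (-1.50 ± 0.27, adjusted p = 0.00205), and the liver-type Pfkl fell by 1.01 ± 0.23 (adjusted p = 0.00847). For each of the 4 enzymes all restricted libraries were below all fed ones. Slc2a4, the insulin-responsive glucose carrier GLUT4, fell by 0.74 ± 0.20 (adjusted p = 0.0220) and Slc16a1, a lactate and pyruvate carrier, by 0.62 ± 0.15 (adjusted p = 0.00962). Slc2a3, another glucose carrier, rose from levels near 1 CPM by 1.12 ± 0.30 (adjusted p = 0.0198), and Pdk2, which holds pyruvate back from oxidation, rose by 0.36 ± 0.09 (adjusted p = 0.0134). Pdk4, its fasting-induced relative, was 1798, 2604 and 2417 CPM with AL and 3513, 3182 and 3699.8 CPM with ALDR, without overlap but not past the threshold (0.61 ± 0.21, adjusted p = 0.0616). Of 24 glycogen genes 4 fell (16.7%, against 7.22% of all genes tested), among them Ppp1r3c, Phka2 and Pgm1, by 0.72, 0.43 and 0.37, and Ppp1r3e rose by 0.63. Hk1, Hk2, Pfkp, Pfkl and Slc2a4 were highest in AL replicate 1 and muscle markers in AL replicate 2. The part of muscle in these falls was not tested. Without both muscle-rich libraries there were 1 glycolysis call and 0 glycogen calls, with the covariates 7 and 2, with DESeq2 12 and 6, and with only the groups compared 18 and 7. The 8 glycolysis calls became 5 without AL replicate 1 and 4 without ALDR replicate 1, and the 5 glycogen calls became 0 without AL replicate 1, 2 without AL replicate 2, 3 without AL replicate 3, 1 without ALDR replicate 1, 0 without ALDR replicate 2 and 0 without ALDR replicate 3. Hk1 and Pfkp kept the call with any 1 library left out, that of Hk2 was lost without AL replicate 1 (adjusted p = 0.0539), and that of Slc2a4 without AL replicate 1, AL replicate 2, ALDR replicate 1 or ALDR replicate 3 (adjusted p = 0.0636 to 0.0990).

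None of 78 tested respiratory chain genes was called (8 at an unadjusted p under 0.05, 1 by DESeq2 and 7 in the fit of only the groups compared). Of the 78 estimates 70 were negative, with a median log2 fold change of -0.16. Of 20 genes of the tricarboxylic acid cycle 3 fell (15%, against 7.22% of all genes tested), Sucla2, Idh2 and Ogdh, by 0.60, 0.42 and 0.37. None of 26 interferon-stimulated genes was called (1 at an unadjusted p under 0.05 and 0 by DESeq2), and of 22 proliferation genes Ccnd3 alone rose (0.42 ± 0.12, adjusted p = 0.0296), a call lost without AL replicate 1, AL replicate 2, ALDR replicate 1, ALDR replicate 2 or ALDR replicate 3 (adjusted p = 0.0532 to 0.134). In the catabolism of branched-chain amino acids, fuels that brown fat oxidises, 4 of 23 genes rose and 3 fell. Ppm1k, the phosphatase that activates the pathway's controlling enzyme, rose by 0.75 ± 0.20 (adjusted p = 0.0174), and Pcca and Mut, of propionate breakdown, fell by 0.70 and 0.49. The calls of Pcca and Mut held with any 1 library left out. The 3 calls of the tricarboxylic acid cycle became 0 without AL replicate 2, 1 without AL replicate 3, 0 without ALDR replicate 1 and 1 without ALDR replicate 3, and 0 with the covariates or without both muscle-rich libraries, and 8 with only the groups compared. The 7 of branched-chain catabolism became 4 without AL replicate 1, 4 without AL replicate 2, 4 without ALDR replicate 1 and 3 without ALDR replicate 2, 1 without both muscle-rich libraries, 6 with the covariates, 11 with DESeq2 and 12 with only the groups compared. Sucla2 lost its call without AL replicate 2 or ALDR replicate 1 (adjusted p = 0.0524 to 0.0571), and Ppm1k without AL replicate 1, AL replicate 3 or ALDR replicate 2 (adjusted p = 0.0650 to 0.0704).

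Clock genes were shifted at this single time of day. Of 19 tested, 6 rose and 3 fell (median log2 fold change 0.30). Per2, a repressor of the clock, was 20.6, 12.7 and 25.2 CPM with AL and 71.7, 57.1 and 70.0 CPM with ALDR (1.76 ± 0.33, adjusted p = 0.00233). Per3, whose promoter with 2 D-boxes is shown above, was 40.01, 17.3 and 28.3 CPM with AL and 85.2, 102 and 76.0 CPM with ALDR (1.62 ± 0.33, adjusted p = 0.00381). Arntl, the activator BMAL1, was 18.4, 29.6 and 25.2 CPM with AL and 5.85, 8.37 and 6.97 CPM with ALDR, lower in each restricted library (-1.78 ± 0.38, adjusted p = 0.00530). Bhlhe40 and Nr1d1, repressors, fell by 1.73 and 1.14, while Tef, Cry2 and Rora rose by 0.77, 0.66 and 0.53. Dbp and Per1 did not pass, at 1.12 ± 0.64, adjusted p = 0.263 and at 0.71 ± 0.48, adjusted p = 0.357. With 1 killing time per mouse, a change of level and a change of phase cannot be told apart. The 9 calls became 2 without both muscle-rich libraries, 9 with the covariates and 14 with only the groups compared. Of these 9, those of Per2, Per3, Arntl, Bhlhe40 and Rora held with any 1 library left out, those of Tef and Cry2 were lost without AL replicate 2, ALDR replicate 1 or ALDR replicate 2 (adjusted p = 0.0647 to 0.116) and without AL replicate 2 or ALDR replicate 1 (adjusted p = 0.0516 to 0.0542), and that of Nr1d1 without AL replicate 1, AL replicate 3, ALDR replicate 1, ALDR replicate 2 or ALDR replicate 3 (adjusted p = 0.0645 to 0.0979).

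Targets of glucocorticoids and of FoxO factors, both active in fasting, had 5 of 24 members higher and 2 lower (median log2 fold change 0.52). These 7 calls became 3 without AL replicate 1, 3 without AL replicate 2, 3 without ALDR replicate 1 and 4 without ALDR replicate 2, 2 without both muscle-rich libraries, 6 with the covariates and 15 with only the groups compared. Klf15, a regulator of amino acid and lipid use, was 25.2, 26.3 and 25.8 CPM with AL and 62.4, 64.9 and 55.5 CPM with ALDR (1.24 ± 0.22, adjusted p = 0.00191). Tsc22d3, the glucocorticoid-induced leucine zipper, was 41.2, 40.01 and 41.5 CPM with AL and 90.3, 82.3 and 77.1 CPM with ALDR (1.02 ± 0.23, adjusted p = 0.00649). Txnip, which restrains glucose uptake, was 1068, 1049 and 1029.7 CPM with AL and 1984, 1929 and 1926 CPM with ALDR (0.89 ± 0.16, adjusted p = 0.00210). Each stood apart from its fed level in all 3 restricted libraries. Sesn1, a stress-induced regulator of growth signalling, rose by 0.54 ± 0.18 (adjusted p = 0.0498). Dusp1, a phosphatase induced by the same hormones, fell by 1.29 ± 0.40 (adjusted p = 0.0363). Irs2 and Fkbp5 did not pass, at 1.44 ± 0.54, adjusted p = 0.0814 and at 1.44 ± 0.51, adjusted p = 0.0686. The calls of Klf15, Tsc22d3 and Txnip held without any 1 library, and that of Dusp1 was lost without AL replicate 1, AL replicate 2, AL replicate 3, ALDR replicate 1 or ALDR replicate 2 (adjusted p = 0.0667 to 0.143).

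Heat shock genes had the highest share of lower calls among the lists, 9 of 22 with 0 higher (median log2 fold change -0.41). Hsp90aa1, the inducible HSP90, was 317, 293 and 280.2 CPM with AL and 149.96, 138 and 159.8 CPM with ALDR (-0.99 ± 0.19, adjusted p = 0.00278). Hspb8, a small chaperone, was 87.1, 80.9 and 63.2 CPM with AL and 34.2, 27.0 and 31.3 CPM with ALDR (-1.32 ± 0.26, adjusted p = 0.00345). Hspb1, Hspa4, Bag3, Dnaja1, Stip1, Chordc1 and Hspd1 fell by 0.89, 0.69, 0.60, 0.58, 0.41, 0.40 and 0.39. Of 27 tested genes of the response to amino acid shortage, 5 fell, 1 rose and 21 did not pass (median log2 fold change -0.15). Atf4, its central transcription factor, was 113, 113 and 112 CPM with AL and 51.6, 54.2 and 63.5 CPM with ALDR, with nearly equal fed libraries, and means of 113 ± 0.623 and 56.4 ± 6.25 CPM (SD, n = 3 each, edgeR adjusted p = 0.000587). Atf5, Ddit3 and Slc7a1 fell by 1.15, 0.57 and 1.27. Pck2, the mitochondrial phosphoenolpyruvate carboxykinase, rose instead, at 17.1, 17.3 and 17.4 CPM with AL and 62.7, 45.0 and 45.9 CPM with ALDR (1.57 ± 0.16, adjusted p = 2.85e-05). Genes of protein folding in the endoplasmic reticulum were split, with 3 of 21 higher and 3 lower (14.3% each, against 7.2% and 7.22% of all genes tested). Herpud1 rose by 0.56 ± 0.09 (adjusted p = 0.000914) and Atf6 fell by 0.53 ± 0.09 (adjusted p = 0.00119). The 9 heat shock calls became 4 without AL replicate 1, 5 without AL replicate 2, 4 without ALDR replicate 1, 4 without ALDR replicate 2 and 4 without ALDR replicate 3, and 2 without both muscle-rich libraries. The 6 calls of the amino acid response became 3 without AL replicate 1, 3 without AL replicate 2, 2 without ALDR replicate 1 and 2 without ALDR replicate 3, and 2 without both muscle-rich libraries. The 6 of protein folding became 3 without ALDR replicate 1, and 2 without both. With the covariates these 3 counts were 10, 7 and 7, and with only the groups compared 15, 7 and 11. Hsp90aa1, Hspb8, Hspb1, Hspa4, Atf4, Pck2, Herpud1 and Atf6 kept the call in the 6 fits without 1 library.

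Of 32 tested genes of defence against oxidants, 8 rose and 3 fell (25% and 9.38%, against 7.2% and 7.22% of all genes tested). Gpx3, the secreted glutathione peroxidase, was 792, 1158 and 976 CPM with AL and 2727, 2308 and 2243 CPM with ALDR (1.31 ± 0.34, adjusted p = 0.0154). Gclc and Gclm, which make glutathione, rose by 0.43 and 0.45, and the glutathione transferases Gstm1 and Gstt1 by 0.58 and 0.64. The superoxide dismutases Sod2 and Sod3 fell by 0.47 and 0.62. Of 28 autophagy genes 4 rose and 1 fell, and Bnip3, which removes mitochondria, was 175, 195 and 218 CPM with AL and 389, 363 and 339 CPM with ALDR (0.89 ± 0.16, adjusted p = 0.00182). The 5 autophagy calls, 17.9% of the list against 14.4% of all genes tested, became 3 without ALDR replicate 3, and 2 without both muscle-rich libraries. Among 46 genes of the extracellular matrix 10 fell and 2 rose (21.7% and 4.35%, against 7.22% and 7.2% of all genes tested). The basement membrane collagens Col4a1, Col4a2, Col15a1 and Col18a1 fell by 0.52, 0.46, 1.05 and 0.47, and Col5a3, Col5a2 and Fbn1 by 0.89, 0.58 and 0.73. The fibrillar collagens Col1a1 and Col3a1 did not pass, at -0.50 ± 0.20, adjusted p = 0.0919 and at -0.49 ± 0.24, adjusted p = 0.186. Summed fibroblast markers were 723 to 868.1 CPM with AL and 612 to 757 CPM with ALDR, and endothelial markers 1096 to 1194 CPM with AL and 889 to 987 CPM with ALDR. Their part in the matrix result was not tested. The 11 antioxidant calls became 3 without AL replicate 1, 3 without AL replicate 2, 3 without ALDR replicate 1, 7 without ALDR replicate 2 and 7 without ALDR replicate 3, and 0 without both muscle-rich libraries. The 12 matrix calls became 7 without AL replicate 2 and 7 without ALDR replicate 1, and 4 without both. With the covariates there were 12 antioxidant, 4 autophagy and 13 matrix calls, and with only the groups compared 16, 5 and 20. Calls that held with any 1 library left out were those of Gstm1, Sod3, Bnip3, Col4a1, Col15a1, Col5a3 and Col5a2, and Gpx3 lost its call without AL replicate 1 or ALDR replicate 1 (adjusted p = 0.0638 to 0.0719).

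The genes with the smallest adjusted p were chosen by a rule and not by function. The first of the rising genes was Etfbkmt, a lysine methyltransferase of the electron transfer flavoprotein that feeds fatty acid oxidation, at 19.0, 18.3 and 17.4 CPM with AL and 56.9, 56.0 and 50.9 CPM with ALDR (1.58 ± 0.12, adjusted p = 3.41e-06). It was followed by Slc27a1, Gstt2, Pbld2, Slc27a2, Pck2, Mttp, Slc22a5, Car5b, St3gal6, Slc43a1 and Tcn2, whose log2 fold changes ran from 1.05 to 2.41. Mttp, which loads triglyceride onto lipoproteins, was 6.18, 5.72 and 5.84 CPM with AL and 22.8, 15.7 and 20.4 CPM with ALDR (1.73 ± 0.19, adjusted p = 4.13e-05), and Slc43a1, a carrier of large neutral amino acids, was 2.47, 2.83 and 1.80 CPM with AL and 15.8, 9.84 and 11.1 CPM with ALDR (2.37 ± 0.28, adjusted p = 0.000109). Car5b is a mitochondrial carbonic anhydrase and Tcn2 carries vitamin B12. The falling genes were Tshr, S100b, Ntng2, Msrb2, Ehbp1l1, Sars2, Jund, Prr32, Gldn, Dusp8, Tpcn2 and Trak2, from -1.03 to -2.95. S100b, a calcium-binding protein that brown adipocytes release to attract sympathetic nerves, was 145, 161 and 108 CPM with AL and 25.5, 27.1 and 21.6 CPM with ALDR (-2.48 ± 0.28, adjusted p = 7.96e-05). Dusp8, a phosphatase of stress kinases whose promoter is shown above, was 30.6, 28.3 and 23.4 CPM with AL and 4.06, 4.34 and 3.99 CPM with ALDR (-2.73 ± 0.37, adjusted p = 0.000262). Jund, an AP-1 transcription factor, was 122, 111 and 115 CPM with AL and 49.9, 52.4 and 53.9 CPM with ALDR (-1.15 ± 0.15, adjusted p = 0.000247). All 24 genes kept the call in each of the 6 fits without 1 library.

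By size of change, the rising genes included Acot3, Cxcl13, Cxcl15 and Wfdc2, and apart from Acot3 these were at or under 4.52 CPM in every library. Cxcl13, a chemokine that attracts B cells, was 0, 0 and 0.0546 CPM with AL and 4.52, 0.856 and 2.14 CPM with ALDR (6.39 ± 1.42, adjusted p = 0.00679). Cxcl15 and Wfdc2, known from epithelia, were 0, 0 and 0.0546 CPM with AL and 2.50, 0.611 and 0.787 CPM with ALDR and 0, 0.263 and 0.0546 CPM with AL and 2.65, 3.24 and 1.57 CPM with ALDR. The summed epithelial markers, 5.51 to 12.8 CPM with AL and 34.6 to 77.2 CPM with ALDR, moved with both, and their part in the rise was not tested. The falling genes were Trim80, Lep, Nts, Fer1l6 and Kcng4. Fer1l6, a ferlin, was 24.9, 10.2 and 16.8 CPM with AL and 1.17, 1.71 and 1.52 CPM with ALDR (-3.54 ± 0.61, adjusted p = 0.00135), and Nts, which encodes neurotensin, was 1.24, 2.04 and 2.18 CPM with AL and 0, 0.122 and 0.225 CPM with ALDR (-3.79 ± 0.91, adjusted p = 0.0102). Cxcl13, Wfdc2 and Fer1l6 kept the call with any 1 library left out, Nts lost it without ALDR replicate 1 (adjusted p = 0.0548), and Cxcl15, whose counts rest on few reads, without AL replicate 1, AL replicate 2, AL replicate 3, ALDR replicate 1 or ALDR replicate 3 (adjusted p = 0.0574 to 0.132).

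The same tissue at 26 months shows how the 5-month response compares with restriction at other ages. Restriction from 12 weeks of age, against full feeding, changed 1594 genes (11.5% of those tested), 830 higher and 764 lower. Of the genes called at 5 months, 834 were also called there, 41.8% of the 5-month list and 52.3% of the 26-month list, and 832 of them went the same way. The 1997 young calls had a median change of 0.61 in their own direction at 5 months, where they were chosen, and 0.40 in that direction after lifelong restriction. Restriction from 24 months changed 180 genes (1.3%), and the same young calls had a median of 0.20 there. The late and the lifelong comparison share their AL libraries, and the 5-month one shares none with either. Counts at 26 months depended on single libraries. The late count was 42, 90 and 17 without AL replicate 1, 2 and 3, and 835, 81, 72 and 273 without ALDR replicate 1, 2, 4 and 5. The lifelong count was 778 and 687 without AL replicate 1 and 3, and 708, 1042 and 957 without DR replicate 1, 2 and 3. Muscle markers had a median log2 fold change of 2.53 after late and 2.75 after lifelong restriction, against -1.75 at 5 months. Epithelial markers were at 4.08 and 0.73, against 2.12, and none of either kind was called at 26 months. With the covariates the late count was 31 and the lifelong count 834. The part of these cells was not tested.

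Several thermogenic genes were lower after lifelong restriction as well. Dio2 was at -2.66 ± 0.58, adjusted p = 0.00794 and Ucp1 at -1.61 ± 0.33, adjusted p = 0.00500, and Adrb3 at -1.11 ± 0.18, adjusted p = 0.00125. After late restriction Dio2 was at -0.12 ± 0.46, adjusted p = 0.925, Ucp1 at -0.18 ± 0.28, adjusted p = 0.791 and Adrb3 at -0.34 ± 0.16, adjusted p = 0.266. The late minus young difference was not called for Dio2 (2.61 ± 0.71, adjusted p = 0.160) or for Ucp1 (0.97 ± 0.43, adjusted p = 0.342), so these responses are not shown to differ. Irf4, a steep riser at 5 months, was at 0.99 ± 0.45, adjusted p = 0.167 after lifelong restriction and at 0.73 ± 0.41, adjusted p = 0.366 after late restriction. Slc27a1, Ehhadh and Acot1 were called in all 3 comparisons, while after late restriction 2 of 20 uptake, 2 of 31 mitochondrial and 3 of 19 peroxisomal genes were called. Slc27a1 was at 1.25 ± 0.17, adjusted p = 0.000307 and at 1.05 ± 0.15, adjusted p = 0.00305, Ehhadh at 1.40 ± 0.32, adjusted p = 0.0101 and at 1.65 ± 0.30, adjusted p = 0.0119, and Acot1 at 3.10 ± 0.64, adjusted p = 0.00590 and at 3.60 ± 0.62, adjusted p = 0.0102, for lifelong and late restriction in that order. Tshr was at -2.12 ± 0.15, adjusted p = 4.44e-07 and at -1.21 ± 0.12, adjusted p = 5.60e-05. Per2 had larger estimates at 26 months than at 5 months, 3.43 ± 0.37, adjusted p = 5.49e-05 and 2.98 ± 0.35, adjusted p = 0.000382, and neither difference from the young response was called (1.67 ± 0.48, adjusted p = 0.501 and 1.22 ± 0.46, adjusted p = 0.278). Acly, down at 5 months, was at -0.35 ± 0.52, adjusted p = 0.712 and at -0.42 ± 0.46, adjusted p = 0.686, and its differences from the young response were not called (1.61 ± 0.74, adjusted p = 0.597 and 1.54 ± 0.70, adjusted p = 0.358).

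**Figure D4:**
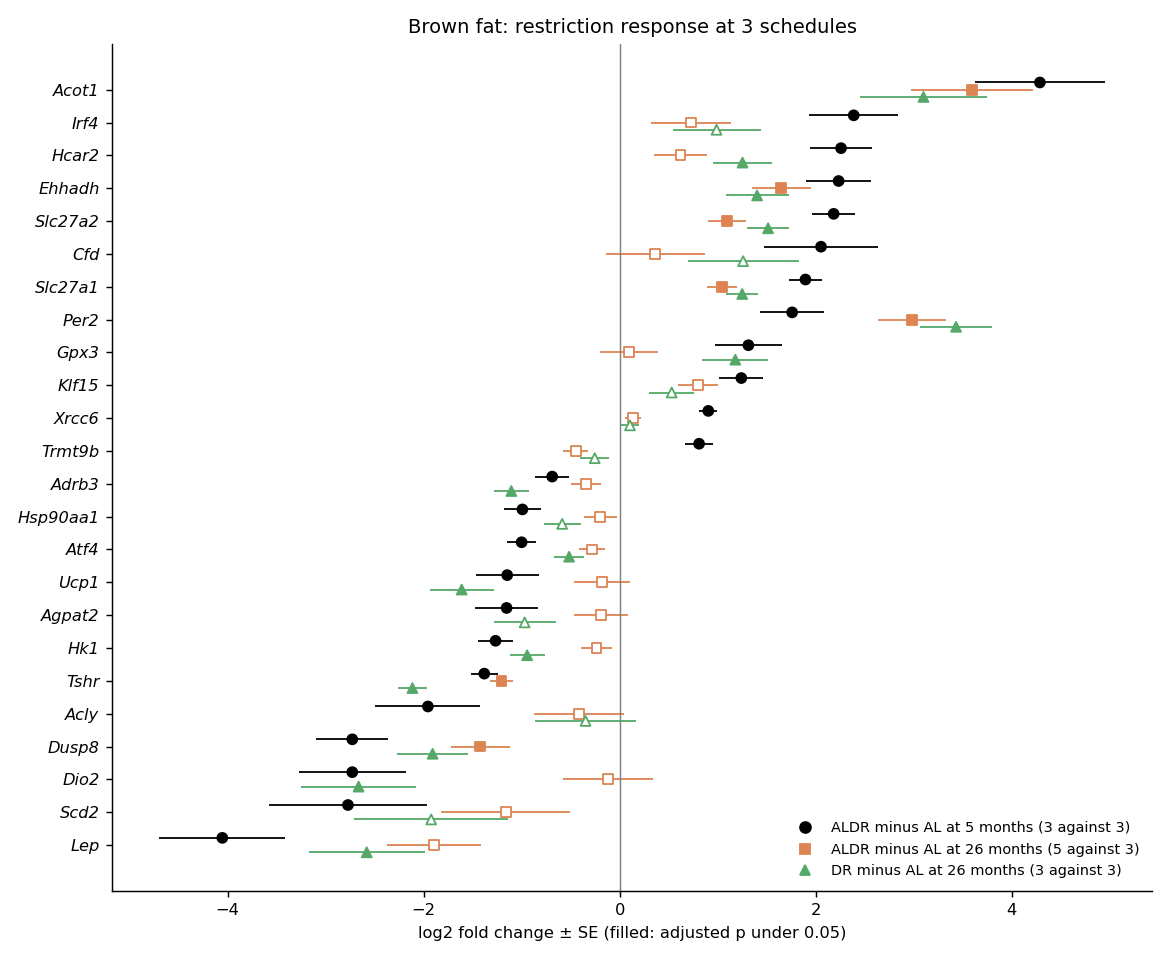
Log2 fold changes ± SE of 24 genes in BAT for restriction during young age (black), late restriction (orange) and lifelong restriction (green), with filled symbols for an adjusted p under 0.05. Slc27a1, Slc27a2, Ehhadh, Acot1, Tshr, Dusp8 and Per2 are filled for all 3 schedules, and Dio2 and Ucp1 for the young and lifelong ones.

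The test of the difference itself called 2 genes between late and young restriction (0.0144% of those tested, 1847 at an unadjusted p under 0.05, 148 by DESeq2), 2 without ALDR replicate 1 at 26 months, 4 without AL replicate 1 at 5 months, 18 without ALDR replicate 5 at 26 months, and 0 without any other single library. Xrcc6, the Ku70 subunit of DNA end joining (chromosome 15, 81987835 to 82040085), was 109, 86.3 and 93.7 CPM with AL and 169, 191 and 180.0 CPM with ALDR at 5 months. The change was 0.91 ± 0.09, adjusted p = 2.36e-05, and at 26 months AL libraries ran from 114 to 123 CPM (median 119) and ALDR libraries from 119.5 to 137 CPM (median 131) (0.14 ± 0.08, adjusted p = 0.403), which gives a difference of -0.77 ± 0.12, adjusted p = 0.0459. Trmt9b, a predicted tRNA methyltransferase (chromosome 8, 36457548 to 36516570), was 10.9, 7.36 and 8.46 CPM with AL and 13.96, 17.8 and 14.95 CPM with ALDR at 5 months (0.81 ± 0.15, adjusted p = 0.00179) and at -0.45 ± 0.13, adjusted p = 0.0843 after late restriction, a difference of -1.26 ± 0.19, adjusted p = 0.0459. Next in order, and not called, were Pbld2, Htra1, Uvssa and Zc3h6, all at an adjusted p of 0.0804. Between lifelong and young restriction no gene was called (0% of those tested, 1133 at an unadjusted p under 0.05, 16 by DESeq2), and the smallest adjusted p was again that of Xrcc6 (-0.80 ± 0.13, adjusted p = 0.115). Both genes rose at 5 months in all 6 fits without 1 library.

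White fat of mice on the same diets at 5 months had 4619 genes called (29.2% of 15828 tested), and 3007 without ALDR replicate 2 of that depot. Of 13629 genes tested in both depots, 837 were called in both, 42.6% of the BAT calls and 20.0% of the WAT calls among them. In 736 the direction was shared and in 101 it was opposite, 73 of the latter being lower in BAT and higher in WAT. Libraries of the depots were made by different methods, so levels are not compared, and the difference between the depots' responses was not tested.

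Among members of the lists fixed for BAT, 78 were called in both depots and 15 of these went opposite ways, 14 of them lower in BAT. In fatty acid synthesis, 15 of 22 fatty acid synthesis genes rose in WAT and 1 fell (14.8% and 14.4% of all genes tested in WAT), against 0 and 5 in BAT. Thrsp was at -0.87 ± 0.28, adjusted p = 0.0450 in BAT and 2.73 ± 0.60, adjusted p = 0.00224 in WAT, Mlxipl at -0.76 and 1.04, Agpat2 at -1.15 and 0.88, and Lpin1 at -0.75 and 1.39. Among glucose genes, Slc2a4 was at -0.74 in BAT and 0.55 in WAT and Pfkl at -1.01 and 0.54. Adrb3 was at -0.69 ± 0.18, adjusted p = 0.0149 in BAT and 1.48 ± 0.26, adjusted p = 0.000389 in WAT, and Letmd1 at -0.82 and 0.80. With the muscle and epithelial covariates the BAT calls of Thrsp, Mlxipl, Lpin1, Slc2a4 and Adrb3 were lost (adjusted p = 0.0698 to 0.124). Epithelial marker sums differed between the diets in BAT, so that fit may also take up part of the diet effect. Cpt1a was the 1 list member higher in BAT and lower in WAT, at 0.82 and -0.55. Respiratory chain genes, none of them called in BAT, had 59 of 78 tested members higher and 0 lower in WAT, against the same 14.8% and 14.4%. Cell markers also moved in WAT. Of 18 macrophage markers 11 were lower and 0 higher there (median log2 fold change -1.23), against 0 called in BAT. Of 22 proliferation genes 15 were lower and 0 higher in WAT (median -1.25). The part of cell make-up in the WAT changes was not tested.

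Other genes went the same way in both depots. Lep was at -4.06 in BAT and -3.80 in WAT, Slc27a1 at 1.90 and 2.47, Irf4 at 2.39 and 2.84, Arntl at -1.78 and -2.03, and Gpx3 at 1.31 and 2.17. Acot1 and Ehhadh, called in BAT, were not called in WAT, at 0.74 ± 0.82, adjusted p = 0.530 and at 0.26 ± 0.18, adjusted p = 0.286.

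**Figure D5:**
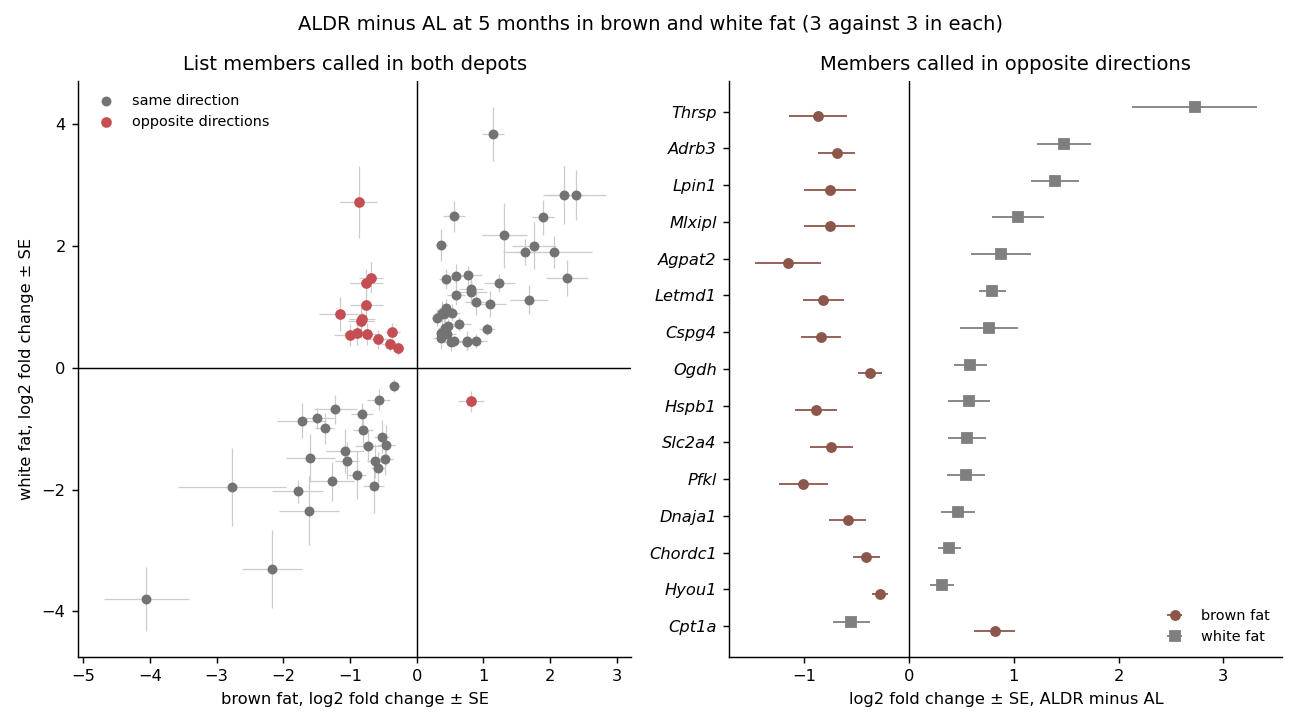
Left, log2 fold changes ± SE in BAT (x axis) and WAT (y axis) of the 78 list members called in both depots at 5 months, with the 15 of opposite direction in red. Right, those 15 genes with BAT as circles and WAT as squares, of which Cpt1a alone is higher in BAT and lower in WAT.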

How the data were processed

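Read counts per gene were analysed from 6 young BAT libraries, with the other 14 BAT libraries and the WAT libraries in the fits or for comparison. The authors deposited 1 table of raw read counts per tissue, whole numbers with 1 column per library. Reads were trimmed with Trim Galore 0.3.7 and aligned with TopHat2 2.0.14 to GRCm38, per the submitters' processing notes. How the counts were made, and with which annotation, is not given in the sources used here. For BAT, polyadenylated RNA was sequenced with strand kept in single reads of 150 bp, and for WAT total RNA in paired reads of 100 bp, per the labels' protocols, although 1 protocol text for BAT also speaks of depleted ribosomal RNA. Symbols and coordinates came from GENCODE M21 (GRCm38), and promoters from RefSeq (GRCm38.p6).

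The gene lists and their members were chosen with earlier results of these data known, so their shares of calls are not independent of those results. The libraries were chosen by their labels. Counts were fitted per tissue over all its groups with the quasi-likelihood test of edgeR 4.0.16 in R 4.3.3, after filterByExpr and TMM scaling. Adjusted p-values are Benjamini-Hochberg values over all genes tested, and called means an adjusted p under 0.05. Errors beside log2 fold changes are standard errors, and CPM values use TMM-scaled library sizes. Named genes were the 12 rising and 12 falling with the smallest adjusted p and the 5 of each with the largest change (at least 1 on the log2 scale, no overlap between libraries, no provisional symbol, at least 1 CPM in the higher group for the latter), the 6 with the smallest adjusted p in each difference between responses, and list members. Some genes that the rule or the lists name are not reported here. The fit was tested on simulated data. Library pairs within the young groups differed by more than counting noise, so none was counted as 1. Same-numbered AL and ALDR libraries had correlations of -0.43, -0.41 and 0.30 of their deviations from the group means, so the numbers were not taken to pair them. Alternatives were DESeq2 1.42.0, other scaling factors and filters, fits of only the groups compared, a replicate block, covariates of muscle and epithelial marker levels, and leaving out libraries. Of the listed symbols, Gyk, Atp5pb, Cebpd and Park2 were not matched in BAT.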

Additional observations from a re-analysis of the deposited data

Results flagged for a closer look

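Xrcc6 and Trmt9b were singled out because their response to restriction differed between 26 and 5 months by a test of the difference. For Xrcc6 the late response was lower than the young one by a log2 difference of -0.77 (adjusted p = 0.0459), with estimates of 0.91 at 5 months and 0.14 at 26 months. For Trmt9b the difference was -1.26 (adjusted p = 0.0459), with estimates of 0.81 at 5 months and -0.45 at 26 months. These were the 2 calls among 13845 genes, and 0 genes were called in the difference without both muscle-rich young libraries. At 5 months, Xrcc6 and Trmt9b were higher in 3 of 3 restricted libraries than in every fed one. Libraries of the diets did not overlap for 1978 of the 1997 genes called at 5 months.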

How the results depend on the processing

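No named gene that was called at 5 months changed direction under any alternative, and 65 of the 196 kept their call under all of them. Calls lost numbered 0 with DESeq2, 9 and 10 with the RLE and upper-quartile factors, 24 with no filter, 2 with only the groups compared, 38 with muscle and epithelium covariates, and 41 to 91 without 1 library. With both muscle-rich young libraries left out, a choice made after seeing the data that leaves 2 libraries a group, 129 were lost. Genes whose call was lost with the covariates included Adrb3, Slc2a4, Thrsp, Mlxipl, Lpin1, Sctr, Insr, Klb, Adra1a, Acad11, Nr1d1, Dusp1, Sucla2, Ogdh and Idh2. Genes lost with the upper-quartile factors included Chordc1, Cyp51, Hspd1, Idh2, Lpin1, Mlxipl, Pgm1 and Sod2, and with no filter also Thrsp, Aqp7, Bscl2, Klb, Ogdh and Pex11a. Scd1, not called, changed sign, at -0.26 without AL replicate 2 and -0.25 without both muscle-rich libraries, and ranged from -0.26 to 0.55 without 1 library.

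The count of 1997 genes at 5 months was 341 without both muscle-rich libraries, and ran from 835 to 1676 without 1 library. Late restriction gave 655 genes with DESeq2, 84 with the replicate block, 4 with only the groups compared and 31 with the covariates, and 17 to 835 without 1 library. Lifelong restriction gave 834 with the covariates and 687 to 1655 without 1 library. The late minus young difference gave 148 with DESeq2, 17 with the upper-quartile factors, 0 with no filter, the replicate block, only the groups compared, the covariates or both muscle-rich libraries left out, and 0 to 18 without 1 library. The lifelong minus young difference gave 16 with DESeq2, 1 with the covariates and 0 to 1 without 1 library. White fat at 5 months gave 3007 to 4319 without 1 library. The cause of these shifts was not tested.

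With the replicate block the 5-month count was 2531, and 4 named genes lost their call, among them Bag3, Chordc1 and Pex11a. Respiratory chain genes, with 0 calls, had 4 with the block. Same-numbered libraries had correlations of -0.43, -0.41 and 0.30 of their deviations from the group means. With 3 libraries a group, these values do not settle whether the numbers pair libraries. The labels name no mouse, cage or litter for a library. Genes near the depth limit, such as Cxcl13, Cxcl15, Nts, Trim80 and Gdf15, rest on few counts, and their fold changes depend on the small count that the fit adds.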
